A study of Mus musculus with 20 samples.

Results

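The genes described here are 10 genes of dendritic cell maturation and co-stimulation, of 770 genes measured in each of 20 mouse tumours. They were taken by gene name, with earlier results of these data already known, so the choice was not blind to the values. They are the chemokine receptor Ccr7, the chemokines Ccl17 and Ccl22, the surface proteins Cd83 and Cd207, the co-stimulatory molecules Cd40, Cd80 and Cd86, and the interleukin-12 subunits Il12a and Il12b. All 10 were in the table, and all 10 symbols matched the RefSeq annotation of the mouse build GRCm38.p6.

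The tumours grew from MMC cells, a mouse mammary carcinoma line, implanted under the skin of mice aged 6 to 8 weeks from the line FVB/N-TgN(MMTV-Erbb2)NK1Mul/J. Every mouse, controls included, carried the Erbb2 transgene, which the MMTV promoter drives mainly in mammary epithelium. Once tumours measured 200 to 500 mm3, mice were randomised by tumour size and given 5 mg/kg of 1 agent intraperitoneally, and tumours were taken on day 1 after treatment. The 4 groups of 5 tumours each received Isotype Control, Isotype T785-ISAC, anti-rHER2 or anti-rHER2 T785-ISAC. An ISAC is an immune-stimulating antibody conjugate, here an antibody that carries T785, an agonist of the RNA-sensing receptors TLR7 and TLR8. The isotype antibody does not bind the tumour antigen, so the groups separate tumour binding, the payload and both together. Each tumour is bulk tissue of 1 implanted line, measured once on 1 day, so fewer cells of a type and less RNA per cell cannot be told apart.

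Dendritic cells take up antigen in tissue, and sensors such as the Toll-like receptors start their maturation. A maturing dendritic cell gains CCR7, which guides it along CCL19 and CCL21 to lymphatic vessels and lymph nodes, together with CD83, CD40, CD80 and CD86, which support the activation of T cells. Some mature dendritic cells secrete interleukin-12, and some secrete CCL17 and CCL22, the ligands of CCR4 on regulatory and helper T cells. Macrophages, B cells and other cells can express many of the same genes, so none of the 10 marks dendritic cells alone in bulk tissue.

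Values are the authors' normalized nCounter signals, a direct count of barcoded probes scaled per tumour, and a level cannot be set against that of another gene because probes differ in efficiency. The whole counts recovered from the signals summed to 271793 to 508433 per tumour. Many of the genes described rest on few of these counts: Il12a had 1 to 7 counts in a tumour, Ccl17 1 to 29, Cd207 3 to 19, Ccl22 3 to 34 and Il12b 4 to 37. Ccr7 had 5 to 63 and Cd80 8 to 46, while Cd83 had 60 to 208. The signals have a floor of 1, which was taken as 1 count, though the true count there may be lower. Summed epithelial markers stood at 7030 to 10650 in all tumours, and the dendritic cell gene Flt3 had group means of 7.79 to 10.1. Of 25 genes listed for the dendritic cell lineage, chemokines among them, 14 were measured. The anti-rHER2 T785-ISAC tumours also had higher summed macrophage markers, 6597 to 9102 against 3382 to 5055 with Isotype Control, and higher neutrophil markers, 788.8 to 2279 against 55.64 to 93.07.

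After anti-rHER2 T785-ISAC, the genes described did not move as 1 block: Ccr7, Cd80 and Il12b rose against Isotype Control, Ccl17 and Cd83 fell, and the other 5 did not pass the test. The test was limma on log2(signal + 1), with p-values adjusted over all 770 genes by the Benjamini-Hochberg method and a gene called at an adjusted p below 0.05. Of the 10 genes 3 were called higher, where 39.9% of all genes were, and 2 were called lower, where 4.68% of all genes were. Against anti-rHER2, 1 was called higher, beside 19.6% of all genes, and 2 lower, beside 2.99%. Against Isotype T785-ISAC, 4 were called higher, beside 36% of all genes, and 2 lower, beside 3.9%. The median log2 fold change of the 10 genes was 0.44, 0.21 and 0.41 in these 3 comparisons, and that of all 770 genes was 0.36, 0.16 and 0.29. Ccr7 and Ccl17 were the genes called in all 3 comparisons, in opposite directions. The 3 comparisons share the anti-rHER2 T785-ISAC tumours, so they are not independent of each other.

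**Figure D1:**
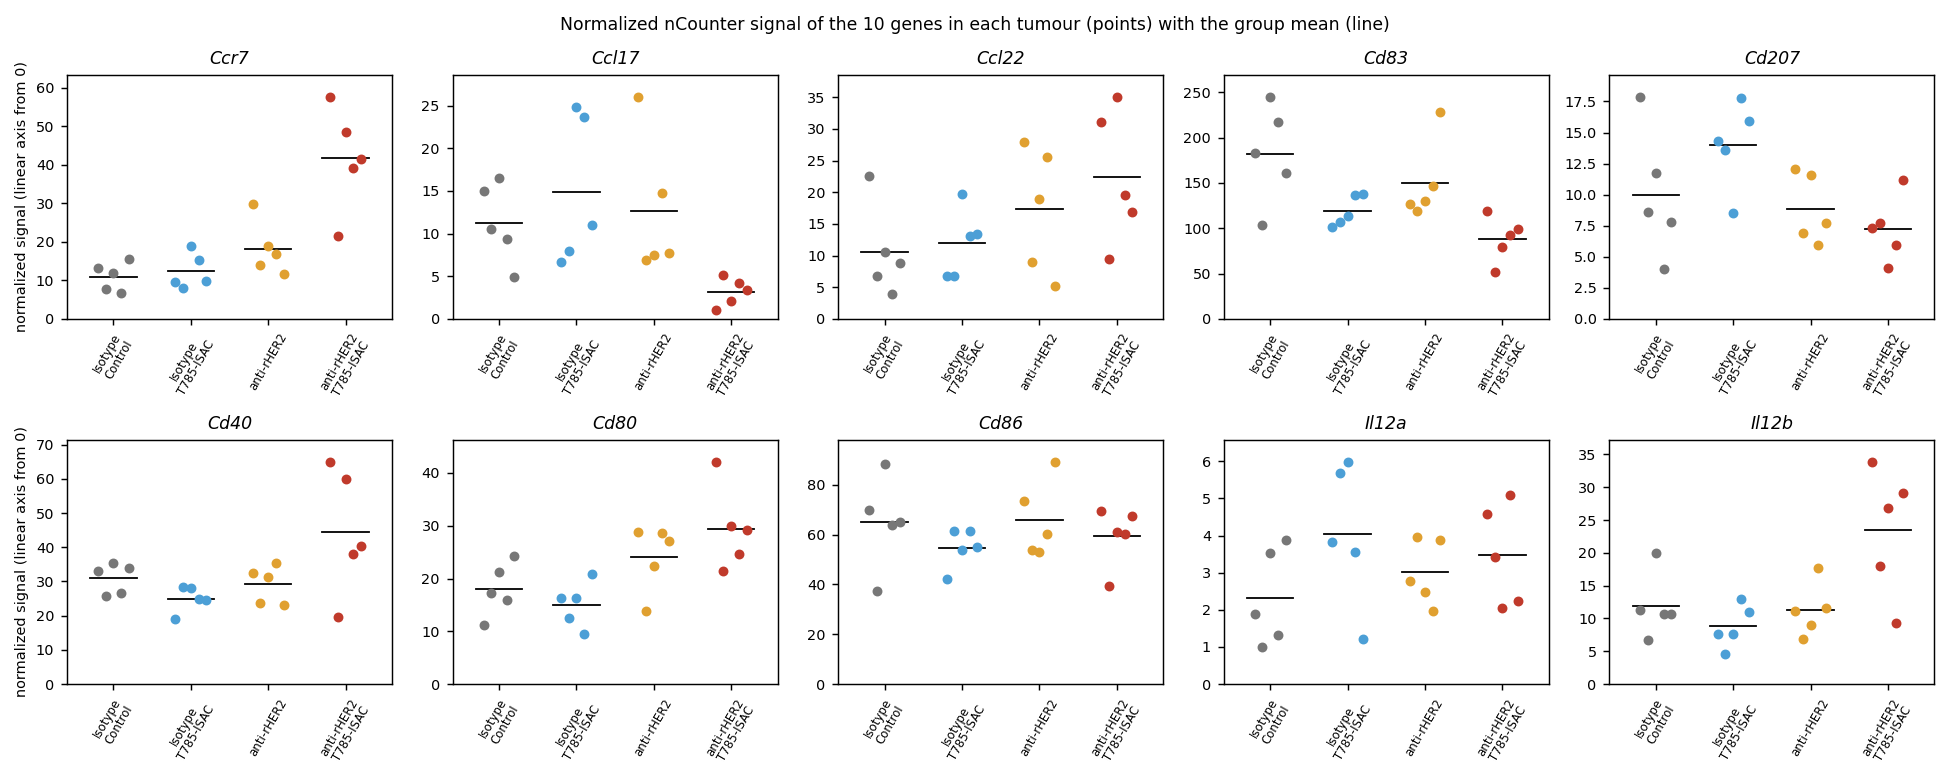
Normalized nCounter signal (linear axes from 0) of the 10 genes in each of the 20 tumours, as points, with the mean of the 5 tumours of a group as a line. The anti-rHER2 T785-ISAC group has the highest mean for Ccr7, with tumours at 21.4 to 57.6, and the lowest for Ccl17, at 1.0 to 5.14, and all groups overlap for Cd86.

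Ccr7, the receptor that takes mature dendritic cells and naive lymphocytes to lymph nodes, was the gene of the 10 with the largest rise. Its signal in the Isotype Control tumours 1 to 5 was 13.2, 7.66, 11.8, 6.65 and 15.5. In the Isotype T785-ISAC tumours it was 9.57, 7.95, 18.8, 15.4 and 9.79, and with anti-rHER2 it was 29.8, 13.9, 19.0, 16.8 and 11.6. With anti-rHER2 T785-ISAC it was 57.6, 21.4, 48.5, 39.0 and 41.5. Every anti-rHER2 T785-ISAC tumour lay above every tumour of both isotype groups, and only its tumour 2 lay below a tumour given anti-rHER2, the first. Genes higher without overlap made up 28.6% of all genes against Isotype Control and 24.7% against Isotype T785-ISAC. The group means were 11.0 ± 3.74 (SD, n = 5) with Isotype Control and 41.6 ± 13.4 (SD, n = 5) with anti-rHER2 T785-ISAC. The log2 fold change was 1.82 ± 0.30 (SE; limma adjusted p = 6.87e-05) against Isotype Control, 1.15 ± 0.30 (adjusted p = 0.00943) against anti-rHER2 and 1.68 ± 0.30 (adjusted p = 0.000187) against Isotype T785-ISAC. The difference in means passed the test in all 3 comparisons, though the groups overlapped against anti-rHER2.

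The chemokines that CCR7 follows were measured too, and neither passed the test against Isotype Control. Ccl19 had a mean signal of 2.75 ± 1.60 (SD, n = 5) with Isotype Control and 4.57 ± 2.69 (SD, n = 5) with anti-rHER2 T785-ISAC, a log2 difference of 0.52 (limma adjusted p = 0.329). Ccl21a had 11.9 ± 7.96 and 32.6 ± 38.7 (SD, n = 5 each), a log2 difference of 0.74 (limma adjusted p = 0.489). The SD of Ccl21a with anti-rHER2 T785-ISAC exceeded its mean, so these tumours differed widely among themselves.

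Ccl17 and Ccl22 encode the ligands of CCR4 and are neighbours on chromosome 8, yet their signals went apart. Ccl22 lies at chr8:94745684-94751388 and Ccl17 at chr8:94809380-94812038 in GRCm38.p6, with 57991 bases and 1 protein-coding gene, Cx3cl1, between them. The 250 bases before the start that the RefSeq promoter table gives for each gene are shown because these neighbours moved differently. The Ccl17 window is chr8:94810203-94810452 and the Ccl22 window chr8:94745434-94745683, both on the plus strand; the Ccl17 window lies inside the annotated span of the gene, whose first base is further upstream. Capitals mark matches to the kappaB motif GGGNNNNNCC on either strand, the pattern bound by NF-kappaB factors.
Ccl17: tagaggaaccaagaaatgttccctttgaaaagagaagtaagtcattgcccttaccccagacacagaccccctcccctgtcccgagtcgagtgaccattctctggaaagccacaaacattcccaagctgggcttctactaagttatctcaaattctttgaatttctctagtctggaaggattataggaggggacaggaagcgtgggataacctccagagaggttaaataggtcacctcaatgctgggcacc
Ccl22: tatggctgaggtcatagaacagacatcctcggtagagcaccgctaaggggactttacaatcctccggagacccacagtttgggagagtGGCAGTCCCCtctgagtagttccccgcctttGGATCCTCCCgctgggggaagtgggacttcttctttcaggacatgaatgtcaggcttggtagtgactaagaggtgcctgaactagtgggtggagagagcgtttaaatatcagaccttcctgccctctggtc
The Ccl22 window held 2 matches, which begin 162 and 131 bases before the start, and the Ccl17 window held none. Of 32851 mouse promoter windows of this length, 45.8% held at least 1 match, so a match is common and is only a description of these letters.

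Ccl17 fell with anti-rHER2 T785-ISAC. Its signal in tumours 1 to 5 was 15.1, 10.5, 16.5, 9.31 and 4.85 with Isotype Control, and 6.70, 7.95, 24.8, 23.7 and 11.0 with Isotype T785-ISAC. It was 26.1, 6.95, 7.43, 14.8 and 7.74 with anti-rHER2. It was 1.0, 5.14, 2.06, 4.24 and 3.36 with anti-rHER2 T785-ISAC, where the first tumour stood at the floor of 1 below which the table holds no value. The anti-rHER2 T785-ISAC tumours lay below all tumours given anti-rHER2 and all given Isotype T785-ISAC, and they overlapped Isotype Control only in its tumour 5. Genes lower without overlap made up 1.56% of all genes against anti-rHER2 and 2.08% against Isotype T785-ISAC. The log2 fold change was -1.57 ± 0.43 (SE; limma adjusted p = 0.00588) against Isotype Control, -1.64 ± 0.43 (adjusted p = 0.00993) against anti-rHER2 and -1.85 ± 0.43 (adjusted p = 0.00197) against Isotype T785-ISAC. With so few counts, the fold on the log2(signal + 1) scale understates the change.

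Ccl22 did not fall with its neighbour. Its mean signal was 10.5 ± 7.17 with Isotype Control, 11.9 ± 5.40 with Isotype T785-ISAC, 17.3 ± 10.0 with anti-rHER2 and 22.4 ± 10.5 with anti-rHER2 T785-ISAC (SD, n = 5 each). The anti-rHER2 T785-ISAC tumours had 31.1, 9.42, 35.1, 19.5 and 16.8, and these overlapped all other groups. The log2 difference against Isotype Control was 1.08 ± 0.47 (SE; limma adjusted p = 0.0705), with a 95% interval of 0.10 to 2.07. It passed the test without anti-rHER2 T785-ISAC tumour 2, at 1.34 (limma adjusted p = 0.0284), without Isotype Control tumour 1, at 1.39 (adjusted p = 0.0221), without anti-rHER2 tumour 5 (adjusted p = 0.0474) and with the replicate block (adjusted p = 0.0386). Under the other scalings it was 0.73 or less and did not pass. Their receptor Ccr4 had mean signals of 3.50 and 5.06 in these groups, a log2 difference of 0.17 (limma adjusted p = 0.807).

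Cd83, a surface protein of mature dendritic cells that slows the removal of MHC class II and CD86 from the surface, fell rather than rose. In tumours 1 to 5 its signal was 182.5, 103.5, 245.1, 216.7 and 161.1 with Isotype Control. It was 126.5, 119.2, 130.4, 147.0 and 228.5 with anti-rHER2, and 101.4, 106.7, 113.7, 137.2 and 138.2 with Isotype T785-ISAC. It was 118.9, 51.4, 79.5, 92.5 and 98.6 with anti-rHER2 T785-ISAC. The highest of these 5 lay just below the lowest tumour given anti-rHER2, while tumour 1 of the group overlapped Isotype Control and Isotype T785-ISAC. The log2 fold change was -1.03 ± 0.24 (SE; limma adjusted p = 0.00172) against Isotype Control and -0.77 ± 0.24 (adjusted p = 0.0274) against anti-rHER2. Against Isotype T785-ISAC it was -0.47 ± 0.24 (limma adjusted p = 0.125), which did not pass. The call against anti-rHER2 was lost without anti-rHER2 T785-ISAC tumour 2, at -0.59 (limma adjusted p = 0.0663), without its tumour 3, at -0.75 (adjusted p = 0.0541), and without anti-rHER2 tumour 5, at -0.61 (adjusted p = 0.0805). It was also lost with only the compared groups in the fit (limma adjusted p = 0.0518).

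Cd207 encodes langerin, a lectin of Langerhans cells and some other dendritic cells. Its mean signal was 10.0 ± 5.20 with Isotype Control, 14.0 ± 3.45 with Isotype T785-ISAC, 8.85 ± 2.80 with anti-rHER2 and 7.26 ± 2.61 with anti-rHER2 T785-ISAC (SD, n = 5 each). It was lower with anti-rHER2 T785-ISAC than with Isotype T785-ISAC, with a log2 fold change of -0.89 ± 0.30 (SE; limma adjusted p = 0.0264), and the groups overlapped. That call was lost without Isotype T785-ISAC tumour 4 or 5 or anti-rHER2 T785-ISAC tumour 3 or 4 (limma adjusted p = 0.0547 to 0.0778). Against Isotype Control the difference was -0.34 ± 0.30 (limma adjusted p = 0.395), and the difference of Isotype T785-ISAC from Isotype Control was 0.55 (limma adjusted p = 0.843).

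The co-stimulatory molecules split. CD80 and CD86 bind the same T cell receptors, CD28 and CTLA-4, and Cd80 rose where Cd86 did not. The Cd80 signal in tumours 1 to 5 was 11.3, 17.2, 21.2, 15.95 and 24.3 with Isotype Control and 42.1, 21.4, 29.9, 24.6 and 29.1 with anti-rHER2 T785-ISAC. It was 16.3, 12.5, 16.2, 9.46 and 20.8 with Isotype T785-ISAC, and 28.8, 13.9, 22.3, 28.6 and 27.1 with anti-rHER2. All anti-rHER2 T785-ISAC tumours lay above all Isotype T785-ISAC tumours, and the group overlapped the other 2. The log2 fold change was 0.69 ± 0.24 (SE; limma adjusted p = 0.0265) against Isotype Control and 0.93 ± 0.24 (adjusted p = 0.00460) against Isotype T785-ISAC. The call against Isotype Control was lost without Isotype Control tumour 1 or 4 or anti-rHER2 T785-ISAC tumour 1 or 3 (limma adjusted p = 0.0501 to 0.0839). Against anti-rHER2 it was 0.28 ± 0.24 (limma adjusted p = 0.461), and anti-rHER2 alone had a mean of 24.2 ± 6.31 beside 29.4 ± 7.87 for the conjugate (SD, n = 5 each).

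Cd86 had overlapping groups throughout, with means of 64.8 ± 18.3, 54.8 ± 7.90, 65.8 ± 15.4 and 59.4 ± 11.9 (SD, n = 5 each) for Isotype Control, Isotype T785-ISAC, anti-rHER2 and anti-rHER2 T785-ISAC. Its log2 difference against Isotype Control was -0.10, with a 95% interval of -0.53 to 0.34 (limma adjusted p = 0.713). That interval leaves out a rise of the size seen for Cd80.

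Cd40, the receptor through which helper T cells license dendritic cells, varied more within the anti-rHER2 T785-ISAC group than elsewhere. The signal there was 64.9, 19.7, 59.8, 38.2 and 40.3 in tumours 1 to 5, beside group means of 30.9 ± 4.40 with Isotype Control, 25.0 ± 3.76 with Isotype T785-ISAC and 29.3 ± 5.48 with anti-rHER2 (SD, n = 5 each). In this group 4 of 5 tumours were above every tumour of the other groups, and tumour 2 was below all but 1 of them. The log2 fold change was 0.71 ± 0.24 (SE; limma adjusted p = 0.0219) against Isotype T785-ISAC and 0.41 ± 0.24 (adjusted p = 0.173) against Isotype Control. Without anti-rHER2 T785-ISAC tumour 2 it was 0.67 (limma adjusted p = 0.00527) against Isotype Control and 0.76 (adjusted p = 0.00506) against anti-rHER2. The call against Isotype T785-ISAC was lost without Isotype T785-ISAC tumour 1 and without anti-rHER2 T785-ISAC tumour 1 or 3 (limma adjusted p = 0.0592 to 0.0748), and with only the compared groups in the fit (adjusted p = 0.0754). Its direction against Isotype Control turned under 2 other scalings, to -0.31 and -0.29. The anti-rHER2 T785-ISAC tumour 2 was the lowest of its group in 6 of the 10 genes and the highest in 1, Ccl17.

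Among 22 measured partners of co-stimulation, 9 were called higher and 2 lower with anti-rHER2 T785-ISAC against Isotype Control, with a median log2 fold change of 0.48. Of all genes 39.9% were called higher and 4.68% lower, so the share of partners called higher was near that of all genes. The largest rises were of inhibitory ligands: Cd274, which encodes PD-L1, had 41.6 ± 10.7 and 211.6 ± 48.5 (SD, n = 5 each), a rise of 2.32 on the log2 scale (limma adjusted p = 5.38e-06). Pdcd1lg2, which encodes PD-L2, rose by 1.53 on the log2 scale (limma adjusted p = 0.0116). Ctla4, the inhibitory receptor for CD80 and CD86, was higher by 1.45 (limma adjusted p = 0.0198), and the stimulatory receptor Cd28 differed by -0.80 (adjusted p = 0.0846). Tnfsf18, the ligand of the receptor GITR, fell by 1.55 (limma adjusted p = 0.000624). Cd40lg, the ligand of CD40, did not pass, at 0.55 (limma adjusted p = 0.320). Under the 3 other scalings Ctla4 lost its call, Cd28 was called lower, by up to -1.36, and Pdcd1lg2 was called only with median-ratio scaling. With equal medians 2 of the 22 partners were called higher and 8 lower, beside 92 and 277 of all 770 genes.

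Of the interleukin-12 subunits, Il12b was called higher against Isotype Control and Il12a was not. A difference between them was not shown, since their ratio within tumours, given below, did not pass with all tumours included. Il12b encodes the p40 subunit shared with interleukin-23, and Il12a the p35 subunit. In tumours 1 to 5 Il12b had 11.3, 6.71, 20.0, 10.6 and 10.7 with Isotype Control, 7.65, 4.54, 7.69, 13.0 and 11.0 with Isotype T785-ISAC, and 11.2, 6.95, 9.08, 17.8 and 11.6 with anti-rHER2. With anti-rHER2 T785-ISAC it had 33.8, 18.0, 26.8, 9.33 and 29.1, so 3 tumours lay above all tumours of the other groups while tumours 2 and 4 lay among them. The log2 fold change was 0.88 ± 0.33 (SE; limma adjusted p = 0.0386) against Isotype Control and 1.27 ± 0.33 (adjusted p = 0.00502) against Isotype T785-ISAC. Against anti-rHER2 it was 0.93 ± 0.33 (limma adjusted p = 0.0525), just short of the threshold. The call against Isotype Control held in 13 of 20 fits that each left out 1 tumour. It was lost without Isotype Control tumour 1, 2, 4 or 5 or anti-rHER2 T785-ISAC tumour 1, 3 or 5 (limma adjusted p = 0.0585 to 0.110), and with only the compared groups in the fit (adjusted p = 0.0673).

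Il12a was near the floor, with group means of 2.33 to 4.05, and its log2 difference against Isotype Control was 0.46, with a 95% interval of -0.19 to 1.12 (limma adjusted p = 0.248). With so few counts per tumour, this interval includes a rise of the size seen for Il12b. Of 14 genes of the interleukin-12 axis, 7 were called higher and none lower against Isotype Control, with a median of 0.61. These counts stand beside 39.9% of all genes called higher and 4.68% called lower. Il10, which restrains interleukin-12 production, rose by 2.18 on the log2 scale (limma adjusted p = 3.26e-05). Ebi3, a subunit of interleukin-27, rose by 1.20 (adjusted p = 9.82e-05), and Ifng and its inducer Tbx21, which lie downstream of interleukin-12, were higher by 1.09 (adjusted p = 0.0120) and 1.11 (adjusted p = 0.0322) in the limma fit. Signals of Ifng and Tbx21 were low, with means of 2.46 and 5.91 with Isotype Control and 6.55 and 12.4 with anti-rHER2 T785-ISAC. Under the other scalings Tbx21 was not called and Ifng was called only after quantile normalization. Equal medians left 2 of the 14 called higher and 4 lower, beside 92 and 277 of all 770 genes.

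**Figure D2:**
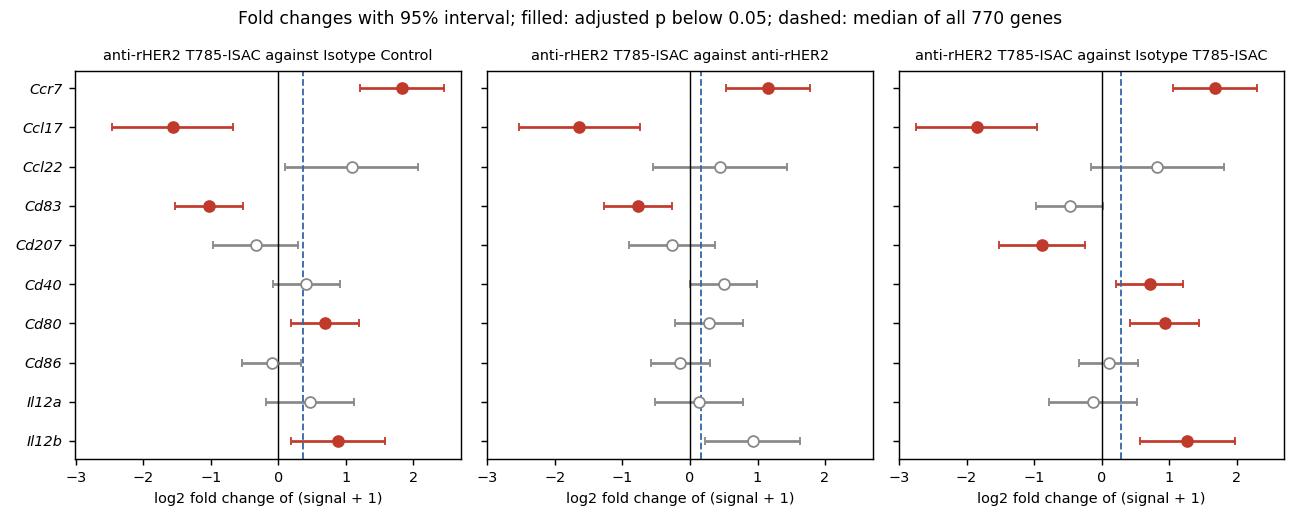
Log2 fold change of (signal + 1) on the horizontal axis for each of the 10 genes, with its 95% interval, in the 3 comparisons of anti-rHER2 T785-ISAC; filled points had an adjusted p below 0.05 and the dashed line is the median of all 770 genes. Ccr7 lies to the right and Ccl17 to the left of 0 in every panel, with intervals that leave out 0.

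Tumour binding alone and payload alone gave no call among the 10 genes. With anti-rHER2 against Isotype Control 0 were called by limma, beside 9.09% of all genes, and 1, Ccr7, had an unadjusted p below 0.05 at 0.67 ± 0.30 (SE; limma adjusted p = 0.171). With Isotype T785-ISAC against Isotype Control 0 were called, beside 0% of all genes, and 1, Cd83, had an unadjusted p below 0.05 at -0.55 ± 0.24 (limma adjusted p = 0.744). By edgeR on the recovered counts 0 were called in either comparison, beside 80 and 0 of all 770 genes. The interaction, which asks whether the difference made by T785 depends on the antibody, gave 0 calls among the 10 by limma, beside 7.14% of all genes. Of the 10, 4 had an unadjusted p below 0.05, and 1 was called by edgeR, beside 62 of all 770 genes. The largest interaction was that of Ccl17, at -1.92 ± 0.60 (limma adjusted p = 0.0650), followed by Il12b at 1.32 ± 0.47 (adjusted p = 0.115) and Ccr7 at 1.00 ± 0.42 (adjusted p = 0.172). So a dependence of the T785 difference on the antibody did not pass the test for any of the 10 genes. Without anti-rHER2 T785-ISAC tumour 2 it passed for 2 of them, Ccl17 at -2.09 (limma adjusted p = 0.0415) and Cd40 at 1.05 (adjusted p = 0.00913), beside 67 of all 770 genes. Over the 20 fits that each left out 1 tumour, it passed in 2 for Ccl17 and in 1 for Cd40. For Il12b it passed in 1 fit without another tumour (limma adjusted p = 0.0222).

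Dividing the signal of 1 gene by that of another in the same tumour cancels the scaling of that tumour, apart from the pseudocount of 1 added to each signal, which weighs most where Ccl17 or Il12a is near the floor. In all, 8 such ratios were compared between anti-rHER2 T785-ISAC and the 3 other groups, 24 tests. Each was an exact two-sided permutation test over all splits of 5 against 5 tumours, whose smallest possible p is 0.00794, adjusted over the 24 tests, and 15 had an adjusted p below 0.05. Several pairs set Ccr7 or Itgax, called higher by limma against Isotype Control, beside Ccl17 or Cd83, called lower in the same tumours. Those ratios restate the limma calls free of scaling and are not separate support for them. The log2 ratio of Ccr7 to Ccl17 was 4.87, 1.87, 4.02, 2.93 and 3.28 in the anti-rHER2 T785-ISAC tumours and at most 1.50 in any other tumour. The 4.87 rests on a Ccl17 signal at the floor, so its size is set by the floor and the pseudocount. Its mean exceeded that of Isotype Control by 3.39, that of anti-rHER2 by 2.79 and that of Isotype T785-ISAC by 3.53 (exact permutation p = 0.00794, adjusted p = 0.0159, in each). With a pseudocount of 10 these differences shrank to 1.95, 1.58 and 2.04 and still passed (exact permutation adjusted p = 0.0173 in each). The ratio of Ccr7 to Cd83 also stood apart without overlap, by 2.85, 1.92 and 2.15 against the same groups (exact permutation adjusted p = 0.0159 in each).

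The ratio of the neighbours Ccl22 to Ccl17 was higher with anti-rHER2 T785-ISAC, at 4.00, 0.76, 3.56, 1.97 and 2.03 on the log2 scale in tumours 1 to 5. The difference was 2.65 against Isotype Control and 2.68 against Isotype T785-ISAC (exact permutation adjusted p = 0.0159 in each), and 2.08 against anti-rHER2 (exact permutation adjusted p = 0.0272), where tumour 2 overlapped. With a pseudocount of 10 these were 1.33, 1.39 and 0.99, and all 3 passed (exact permutation adjusted p = 0.0293, 0.0173 and 0.0408). The call against anti-rHER2 was lost without anti-rHER2 tumour 1, 2 or 5 and without anti-rHER2 T785-ISAC tumour 1 or 3 (exact permutation adjusted p = 0.0508 to 0.0635). The ratio of Cd80 to Cd86 was higher by 0.79 against Isotype Control (exact permutation adjusted p = 0.0381) and by 0.83 against Isotype T785-ISAC (adjusted p = 0.0159). The call against Isotype Control was lost with a pseudocount of 10, at 0.58 (exact permutation adjusted p = 0.0595), without Isotype Control tumour 1, 3 or 4 (adjusted p = 0.0508 in each), and without any 1 of the anti-rHER2 T785-ISAC tumours (adjusted p = 0.0501 to 0.102). That against Isotype T785-ISAC was lost without anti-rHER2 T785-ISAC tumour 1, 2, 3 or 5 (exact permutation adjusted p = 0.0508 to 0.0544). Against anti-rHER2 the difference of 0.43 did not pass (exact permutation adjusted p = 0.0784). The ratio of Cd40 to Cd86 passed in 1 of its 3 tests, against Isotype T785-ISAC at 0.61 (exact permutation adjusted p = 0.0272), a call lost without Isotype T785-ISAC tumour 1, 2, 4 or 5 (adjusted p = 0.0508 in each). That of Il12b to Il12a passed in 0 of 3 (exact permutation adjusted p = 0.10 to 0.464), and without anti-rHER2 T785-ISAC tumour 4 it passed against both isotype groups (adjusted p = 0.0476 in each).

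Set against Itgax, which encodes CD11c of dendritic cells and many macrophages, Ccr7 and Cd83 differed. Itgax rose from 36.3 ± 8.06 with Isotype Control to 99.1 ± 12.9 with anti-rHER2 T785-ISAC (SD, n = 5 each), a rise of 1.44 on the log2 scale (limma adjusted p = 1.40e-06). The log2 ratio of Ccr7 to Itgax was -1.68 ± 0.54 with Isotype Control and -1.29 ± 0.45 with anti-rHER2 T785-ISAC (SD, n = 5 each), and the difference of 0.38 did not pass (exact permutation adjusted p = 0.268). The ratio of Cd83 to Itgax fell by 2.47, 1.51 and 1.93 against Isotype Control, anti-rHER2 and Isotype T785-ISAC, without overlap (exact permutation adjusted p = 0.0159 in each). So Cd83 fell beside a rising Itgax, and for Ccr7 no difference from Itgax passed the test.

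**Figure D3:**
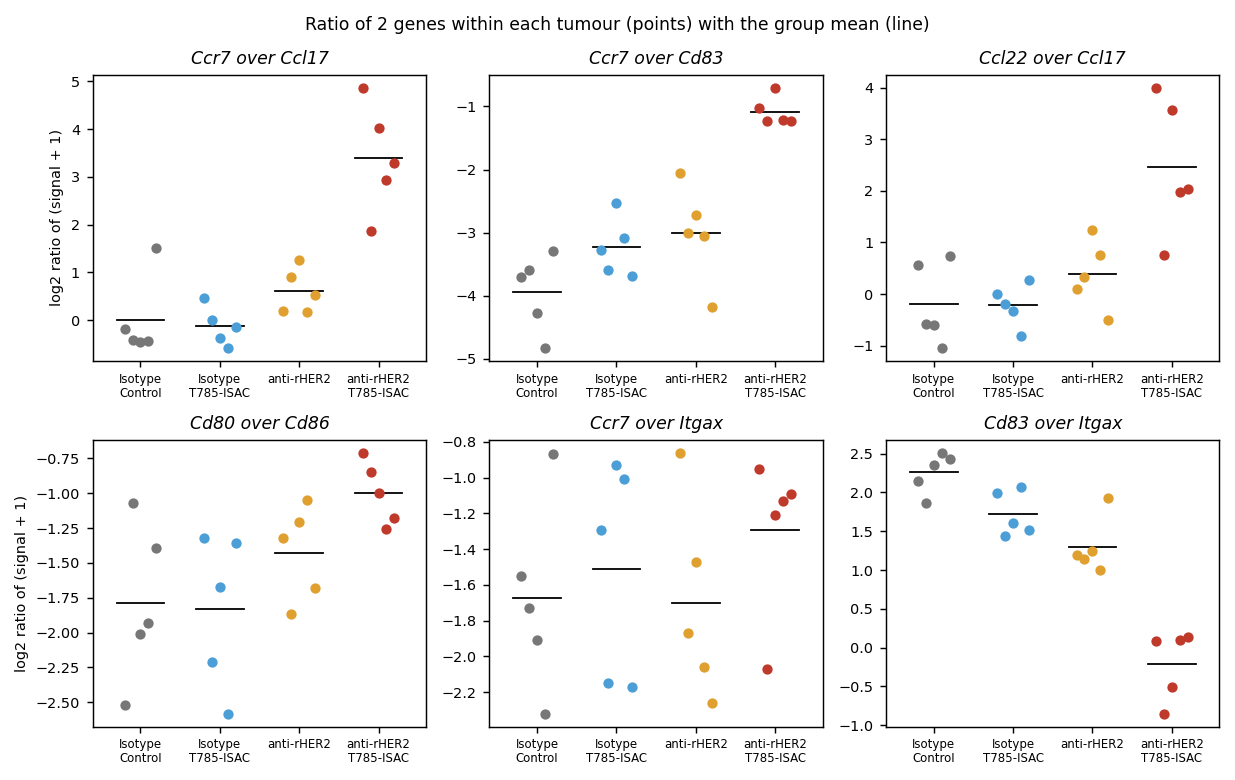
Log2 ratio of (signal + 1) of 2 genes within each tumour, with the group mean as a line. For Ccr7 over Ccl17 the anti-rHER2 T785-ISAC tumours lie at 1.87 to 4.87, above all other tumours, and for Ccr7 over Itgax all groups overlap.

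The scaling of the tumours bears on which of the smaller differences count. As deposited, the median of all 770 genes was higher with anti-rHER2 T785-ISAC than with Isotype Control by 0.36 on the log2 scale, with 307 genes called higher and 36 lower. Median-ratio scaling, which sets that shift to about 0, gave 160 higher and 136 lower, quantile normalization 130 and 182, and equal medians of all genes 92 and 277. The median log2 fold change of all genes was -0.09 after quantile normalization and -0.30 with equal medians, so the latter turned the shift over rather than removing it. Ccr7 was called higher under these 3 scalings, at 1.46, 1.15 and 1.14. Ccl17 was called lower, at -1.86, -1.81 and -2.10, and Cd83 lower, at -1.41, -1.71 and -1.75. These 3 genes kept direction and call against Isotype Control under the 3 scalings tried. Cd80 lost its call, at 0.32, 0.03 and -0.01, and so did Il12b, at 0.52, 0.23 and 0.20. Cd86 was called lower under these scalings, at -0.48, -0.81 and -0.81. Cd40, not called in any of them, went from 0.41 to 0.04, -0.31 and -0.29, so its direction depended on the scaling. Cd207 was called lower with equal medians, at -0.96 (limma adjusted p = 0.0141), and not with the other 2. Against Isotype T785-ISAC, Ccr7, Ccl17 and Cd207 kept their calls under the 3 scalings, and Cd83 gained one, at -0.82, -1.12 and -1.19. There Cd40 lost its call, at 0.38, 0.06 and 0.01, Cd80 kept it only with median-ratio scaling, at 0.60, and Il12b lost it with equal medians, at 0.60. Against anti-rHER2, Ccr7, Ccl17 and Cd83 kept their calls under all 3.

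**Figure D4:**
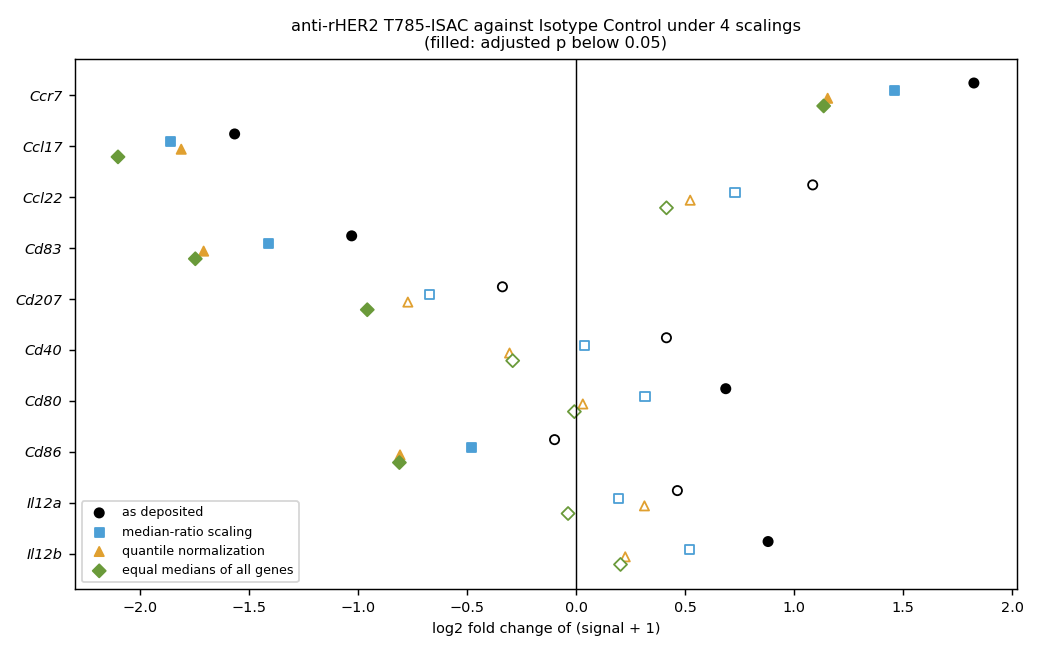
Log2 fold change of (signal + 1) with anti-rHER2 T785-ISAC against Isotype Control, on the horizontal axis, for each of the 10 genes under 4 scalings, with filled symbols for an adjusted p below 0.05. Ccr7, Ccl17 and Cd83 are filled under all 4, and Cd80 and Il12b are filled only as deposited.

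The genes most like each called gene were found by the smallest root mean square difference of centred log2(signal + 1) over the 20 tumours, as a description. Nearest to Ccr7 were Ikbke, a kinase of interferon and NF-kappaB signalling, at 0.305, and Oasl1, an interferon-induced gene, at 0.31, where the SD of Ccr7 itself was 0.863. Nearest to Cd83 were Clec4n, which encodes dectin-2, at 0.296, and the ribosomal gene Rpl19 at 0.347. Nearest to Cd80 were C1qb and Ctss, at 0.288 each, both abundant in macrophages. Cd40 lay nearest to Sh2d1a, an adaptor of T and NK cells, at 0.222 and to Rel, an NF-kappaB subunit, at 0.258. Il12b lay nearest to Slamf7 at 0.398 and H2-D1 at 0.428. The nearest genes of Ccl17 and Cd207 lay furthest off among the called genes, with no cutoff set for closeness. They were Ccl1 at 0.63 and H2-Ab1 at 0.684 for Ccl17, and Hc at 0.458 and Kit at 0.483 for Cd207. The SDs of Ccl17 and Cd207 themselves were 1.0 and 0.569.

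Most of the measured genes listed for the dendritic cell lineage were not called against Isotype Control as deposited. The list is broader than markers of these cells and also holds the chemokines Xcl1 and Ccl21a. Of 14 measured, 2 were called higher and 1 lower with anti-rHER2 T785-ISAC against Isotype Control, beside 39.9% and 4.68% of all genes. Their summed signal was 764 to 1110 with anti-rHER2 T785-ISAC, which overlapped the 603.6 to 841.3 with Isotype Control. The median log2 fold change of the 14 was 0.11. The median turned to -0.25 with median-ratio scaling (2 higher, 3 lower), to -0.48 after quantile normalization (2 and 4) and to -0.58 under equal medians (2 and 7). Of all 770 genes these scalings called 160, 130 and 92 higher and 136, 182 and 277 lower. The 2 listed genes called higher as deposited were Itgax and Clec4a2, an inhibitory lectin of myeloid cells, which rose by 2.17 on the log2 scale (limma adjusted p = 4.52e-08). The gene called lower was Xcl1, made by NK and T cells and sensed by cross-presenting dendritic cells, which fell by 0.82 (limma adjusted p = 0.000620). Flt3, the receptor that sustains dendritic cells, had 9.32 ± 3.13 and 8.97 ± 3.88 (SD, n = 5 each), a log2 difference of -0.08 (limma adjusted p = 0.836). The transcription factors Irf4 and Irf8 differed by 0.66 (limma adjusted p = 0.253) and 0.06 (adjusted p = 0.662), and Irf8 was called lower under the 3 other scalings, by up to -0.66.

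Of 20 measured regulators of NF-kappaB and maturation, 12 were called higher and none lower against Isotype Control as deposited, with a median of 0.51. Of all genes 39.9% were called higher and 4.68% lower. Under equal medians 4 of the regulators were higher and 8 lower, beside 92 and 277 of all 770 genes. Tlr8, which with Tlr7 senses single-stranded RNA, rose by 1.64 on the log2 scale (limma adjusted p = 3.10e-07), while Tlr7 differed by 0.37 (adjusted p = 0.278). Ikbke rose by 1.51 (limma adjusted p = 3.93e-06), Tlr9 by 1.42 (adjusted p = 0.000382) and Irf7, a factor of the interferon response, by 1.33 (adjusted p = 0.000368). MHC class II genes went the other way: 0 of 9 were called higher and 4 lower, beside the 39.9% and 4.68% of all genes, with a median of -0.50. Under the other scalings the count lower was 6 of 9 (median-ratio, median -0.89), 7 (quantile, -0.83) and 8 (equal medians, -1.22). All genes called lower under these scalings numbered 136, 182 and 277 of 770. H2-Ab1 fell by 1.25 (limma adjusted p = 7.45e-05) and H2-Aa by 0.72 (adjusted p = 0.0137), and Cd74 and Ciita, named after their values were seen, were the other 2.

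Markers of other cell types also differed in the same tumours. Against Isotype Control, as deposited, 8 of 10 macrophage markers were called higher, 4 of 9 neutrophil markers, 2 of 10 B cell markers, 1 of 11 T cell markers and 2 of 4 epithelial markers, and none lower, beside the 39.9% of all genes called higher. With median-ratio scaling 6 macrophage markers were called higher, and 1 epithelial marker was higher and 2 lower. With equal medians 3 macrophage markers were higher and 2 lower, 1 T cell marker higher and 2 lower, and 2 epithelial markers lower. The neutrophil count was 4 higher and 0 lower under each of the 3 scalings. Summed B cell markers ranged from 94.96 to 124.3 with Isotype Control and from 156.1 to 242.5 with anti-rHER2 T785-ISAC, and 3 of the 10 had mean signals under 3 in the latter group. Summed T cell markers ranged from 166.2 to 243.7 and from 269.7 to 544.8. The part of these shifts in the values of Ccr7, Cd80, Cd40 and Il12b was not tested.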

How the data were processed

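Total RNA of 20 tumours, extracted with the RNeasy kit after storage in RNAlater per the labels' protocols, was counted with nCounter probes. The deposited values are a normalized signal per gene and tumour, and the sources used here give neither the normalization method nor the run of a tumour, which leaves batches untested. Among small signals above the floor, 100% were whole multiples, within 0.02 count, of 1 step per tumour. Dividing by the steps, with a signal at the floor taken as 1 count, gave the counts used with edgeR 4.0.16 (quasi-likelihood test). It called 349, 187, 311, 80, 0 and 62 genes in the 6 comparisons.

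The treatment label gave the groups, and each tumour came from its own mouse. The test was limma 3.58.1 (R 4.3.3) on log2(signal + 1): 1 fit over 20 tumours, a mean per group, eBayes without trend, Benjamini-Hochberg over 770 genes per comparison and no filter. Within groups no pair of tumours agreed within counting noise (chi-square per degree of freedom at least 4.59 over 40 pairs). Ratios were tested by exact permutation in Python 3.11.15. The limma and edgeR steps were tested on simulated data. Alternatives were 3 scalings, a pseudocount of 10, dropping the 192 genes with the lowest means, a replicate block, only the compared groups, a trended robust prior, edgeR and leaving out each tumour in turn.

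Besides the 10 genes, the text names for each called gene its 2 nearest genes, up to 4 genes with the largest change from each of 5 pathway lists, and 12 context genes. The members and lists were chosen with earlier results of these data known. Promoters came from the RefSeq table of GRCm38.p6, which held 6 of the 10 genes.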

Additional observations from a re-analysis of the deposited data

Results flagged for a closer look

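Among the 40 sets of 5 tumours (10 genes in 4 groups), 1 tumour stood apart from its group by Dixon's criterion of 0.71 for 5 samples, a rule that chance meets in about 1 of 20 sets. It was anti-rHER2 T785-ISAC tumour 2 for Cd86, with a signal of 39.38 beside 60.2 to 69.5 in the other 4 tumours of its group.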

How the results depend on the processing

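Ccr7 was called in all 3 comparisons of anti-rHER2 T785-ISAC under all 9 alternatives and all 20 fits without 1 tumour, and Ccl17 likewise under the 8 alternatives that kept it, since leaving out the genes of lowest mean removed Ccl17, Cd207 and Il12a. The cause of the changes that follow was not tested. Against Isotype Control, Cd80 turned to -0.0081 with equal medians, Cd40, not called in any of these settings, from 0.41 to -0.29 with equal medians and -0.31 with quantile normalization, and Irf8 turned from 0.06 to -0.66 with equal medians, -0.52 with quantile normalization and -0.32 with median-ratio scaling. Against Isotype T785-ISAC, Cd86 turned from 0.10 to -0.61 with equal medians and -0.58 with quantile normalization. In the interaction the called genes of the 10 went from 0 to 1, Ccl17, with equal medians, median-ratio scaling and edgeR. Of all 770 genes these settings called 83, 56 and 62 in the interaction. Il12b against anti-rHER2 was called with a pseudocount of 10 (adjusted p = 0.0279), without the genes of lowest mean (0.0386), by edgeR (0.0269) and with the replicate block (0.0459), all in the limma or edgeR fits over all genes.

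With the replicate block 6, 4 and 6 of the 10 genes were called in the 3 comparisons of anti-rHER2 T785-ISAC, beside 342, 162 and 298 of all 770 genes. In the other 3 comparisons 0 were called. Of all genes these gave 72 for anti-rHER2 and 0 for Isotype T785-ISAC, each against Isotype Control, and 59 for the interaction. Over 30 pairs of tumours with the same number the deviations from group means had a mean correlation of 0.0286, from -0.177 to 0.253. Over the 120 other pairs the mean was -0.00719. A mean correlation over all genes cannot exclude a batch shared by some tumours, so it does not show whether the numbers mark one. Without 1 tumour in turn the calls among the 10 genes ranged from 3 to 7 against Isotype Control, beside 303 to 360 of all 770 genes. They ranged from 2 to 4 against anti-rHER2, beside 118 to 184 of all genes, and from 4 to 6 against Isotype T785-ISAC, beside 262 to 317. In the interaction they ranged from 0 to 2, beside 47 to 67 of all genes, and in the other 2 comparisons from 0 to 0. Of all genes these other 2 gave 22 to 83 for anti-rHER2 and 0 for Isotype T785-ISAC, each against Isotype Control. Ratios called ranged from 12 to 16 of 24. The 3 calls of the 10 genes against Isotype Control came without Isotype Control tumour 4 or without anti-rHER2 T785-ISAC tumour 1 or 3, and the 7 without its tumour 2. The low counts of Il12a, Ccl17, Cd207, Ccl22 and Il12b limit what could be detected, and p-values measure the spread between 5 mice a group treated and sampled once.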
